A study of Mus musculus with 6 samples.

Results

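The genes described here are 33 genes of sterol and fatty acid synthesis, among 54232 genes in a table of read counts from mouse oviduct. They were chosen by symbol for what they are known to do, and comprise 18 enzymes of sterol synthesis, 5 genes that control the pathway through sterol regulatory element-binding proteins (SREBPs), 5 genes of fatty acid synthesis and 5 genes of sterol transport and efflux. RNA-seq was performed on 6 libraries of primary oviductal muscle cells, 3 labelled WT and 3 labelled Pbrm1 cKO. All came from mice of 8 to 12 weeks that were mated and used on day 2 of pregnancy. Oviduct pieces were digested with trypsin, collagenase and dispase, and the filtered cells were kept on dishes for 4 h in medium with charcoal-stripped serum and for 2 h in fresh medium with serum before lysis.

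The Pbrm1 protein is part of a SWI/SNF complex that remodels chromatin. In the study's cKO mice, a floxed Pbrm1 (Pbrm1 fl/fl) is removed by a cre placed in the progesterone receptor locus (PR-IRES-cre), which acts in any cell that expresses the receptor and is not specific to muscle. The labels call the controls WT, whereas the study's supplement names Pbrm1 fl/fl mice as the controls for RNA-seq of these muscle cells. WT is kept here as the group's name. The supplement calls the 3 libraries of a group biological replicates, while the labels state neither the strain nor whether a library was made from 1 animal or a pool, and p-values measure the spread between these libraries. Cells were enriched by digestion and a filter, with no sort, and the comparison asks how the RNA of these cells differed between the genotypes.

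Cells make cholesterol from acetyl-CoA through mevalonate, the chain-like squalene and the first ring-shaped sterol, lanosterol. When membrane sterol is low, SCAP carries SREBPs from the endoplasmic reticulum to the Golgi, where they are cut and released to switch on genes of the pathway, and when sterol is plentiful, INSIG proteins hold SCAP back. Fatty acids are built from the same acetyl-CoA by ACLY, ACC and FASN, and oxysterols, which are oxidized forms of cholesterol, activate the LXR receptors that raise sterol export. Smooth muscle uses these lipids for its membranes and for caveolae, and steroid-producing cells use cholesterol as the raw material of hormones.

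Libraries held 15390818 to 18947947 counts, so 3 counts, taken as the floor, corresponded to 0.159 to 0.193 CPM (counts scaled to a common normalized library total). Intervals and floors of this kind cover counting error only. Pbrm1 stood at 170, 183 and 172 CPM in WT libraries 1 to 3 and at 43.5, 50.7 and 42.7 CPM in cKO libraries 1 to 3, so the targeted gene went with the labels. Smooth muscle markers were present in every library, with WT means from 1598 CPM for Tagln and 1287 CPM for Acta2 down to 88.2 CPM for Myh11, 62.1 CPM for Cnn1 and 40.7 CPM for Lmod1. Markers of other cells were present too, among them the fibroblast genes Col1a1 (2612 CPM in WT) and Pdgfra (747 CPM) and the leukocyte gene Lyz2 (453 CPM). Mitochondrial transcripts took 7.95% to 8.24% of the counts in WT and 6.88% to 7.81% in cKO.

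The promoters of 4 members are shown, because they hold letters that NF-Y, a partner of SREBPs, or SREBPs themselves are known to read and because these genes differed in how they stood between the groups: Insig1 and Sc5d were higher in cKO, Fasn was lower, and Hmgcs1 was not called. Each run is taken from the 250 bases before the gene's RefSeq start on its own strand, 5′ to 3′, on GRCm38.p6. For Insig1 the deposited table places the start 49 bases earlier, and the run stops there after 201 bases. Capitals mark matches, on either strand, to CCAAT (the NF-Y box, read as ATTGG on the other strand), CACGTG (an E-box) or TCACNCCAC (a sterol regulatory element core).
Insig1, chr5:28071162-28071362, plus strand: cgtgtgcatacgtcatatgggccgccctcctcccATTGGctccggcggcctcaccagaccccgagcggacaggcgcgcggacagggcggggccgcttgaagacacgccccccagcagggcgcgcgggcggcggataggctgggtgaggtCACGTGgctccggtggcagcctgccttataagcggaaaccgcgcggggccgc
Sc5d, chr9:42264301-42264550, minus strand: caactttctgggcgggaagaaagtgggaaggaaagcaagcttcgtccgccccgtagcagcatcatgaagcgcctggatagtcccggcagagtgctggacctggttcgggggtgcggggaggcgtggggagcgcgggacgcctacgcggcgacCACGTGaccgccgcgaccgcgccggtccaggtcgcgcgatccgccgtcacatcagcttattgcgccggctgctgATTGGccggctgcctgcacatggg
Hmgcs1, chr13:119690101-119690350, plus strand: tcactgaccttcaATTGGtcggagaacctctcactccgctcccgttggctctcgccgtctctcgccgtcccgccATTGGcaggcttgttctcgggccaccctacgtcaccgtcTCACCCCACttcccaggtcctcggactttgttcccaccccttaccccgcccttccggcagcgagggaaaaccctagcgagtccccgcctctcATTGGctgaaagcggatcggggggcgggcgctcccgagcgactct
Fasn, chr11:120824548-120824797, minus strand: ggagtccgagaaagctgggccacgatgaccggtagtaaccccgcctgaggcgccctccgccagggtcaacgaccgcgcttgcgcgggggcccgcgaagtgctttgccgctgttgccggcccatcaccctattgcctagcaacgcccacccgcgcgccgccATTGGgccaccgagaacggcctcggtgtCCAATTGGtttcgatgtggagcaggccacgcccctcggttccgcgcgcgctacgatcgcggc

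In these runs Insig1 and Sc5d each held 1 CACGTG and 1 CCAAT, Hmgcs1 held 1 TCACNCCAC and 3 CCAAT, and Fasn held 3 CCAAT, of which a forward and a reverse match overlapped. The Fasn run held neither of the other motifs. Promoter windows of 300 bases, from 250 before to 50 after the start, were found for 25 of the 33 genes. CCAAT was in a window of 21 of these 25 genes (84%), against 41.1% of the 27025 genes that have such a window. CACGTG was in 6 of 25 (24%; Abca1, Dhcr7, Hsd17b7, Insig1, Sc5d and Scap), against 8.09% of all genes, and TCACNCCAC was in 1 of 25 (4%), against 1.44%. Among those with CACGTG, Insig1 and Sc5d were higher in cKO, Hsd17b7, Dhcr7 and Scap were lower and Abca1 was not called, so members with these letters stood on both sides. A match is a description of the letters only, and other forms of the element were not searched.

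All 33 genes passed the filter on low counts, and 20 of them (60.6%) passed an adjusted p of 0.05 (edgeR, cKO against WT). Across the 15376 genes tested, 43.7% were called, with 21.9% higher and 21.8% lower in cKO. Of the members, 14 were higher in cKO, 6 were lower and 13 were not called. In the same 20 genes the CPM of the 3 cKO libraries did not overlap those of the 3 WT libraries, which was so for 53.5% of all genes tested. The changes were of moderate size: member log2 fold changes ran from -0.71 to 0.71, and none reached 1 in either direction, whereas 6.49% of all genes tested were called with a change of more than 1. The median log2 fold change was 0.13 for the members and 0.0016 for all genes tested, and the median absolute change was 0.21 and 0.22, so members moved about as far as the genes at large. In bulk RNA, fewer cells of a type and less RNA per cell cannot be told apart, and this holds for each difference below.

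**Figure D1:**
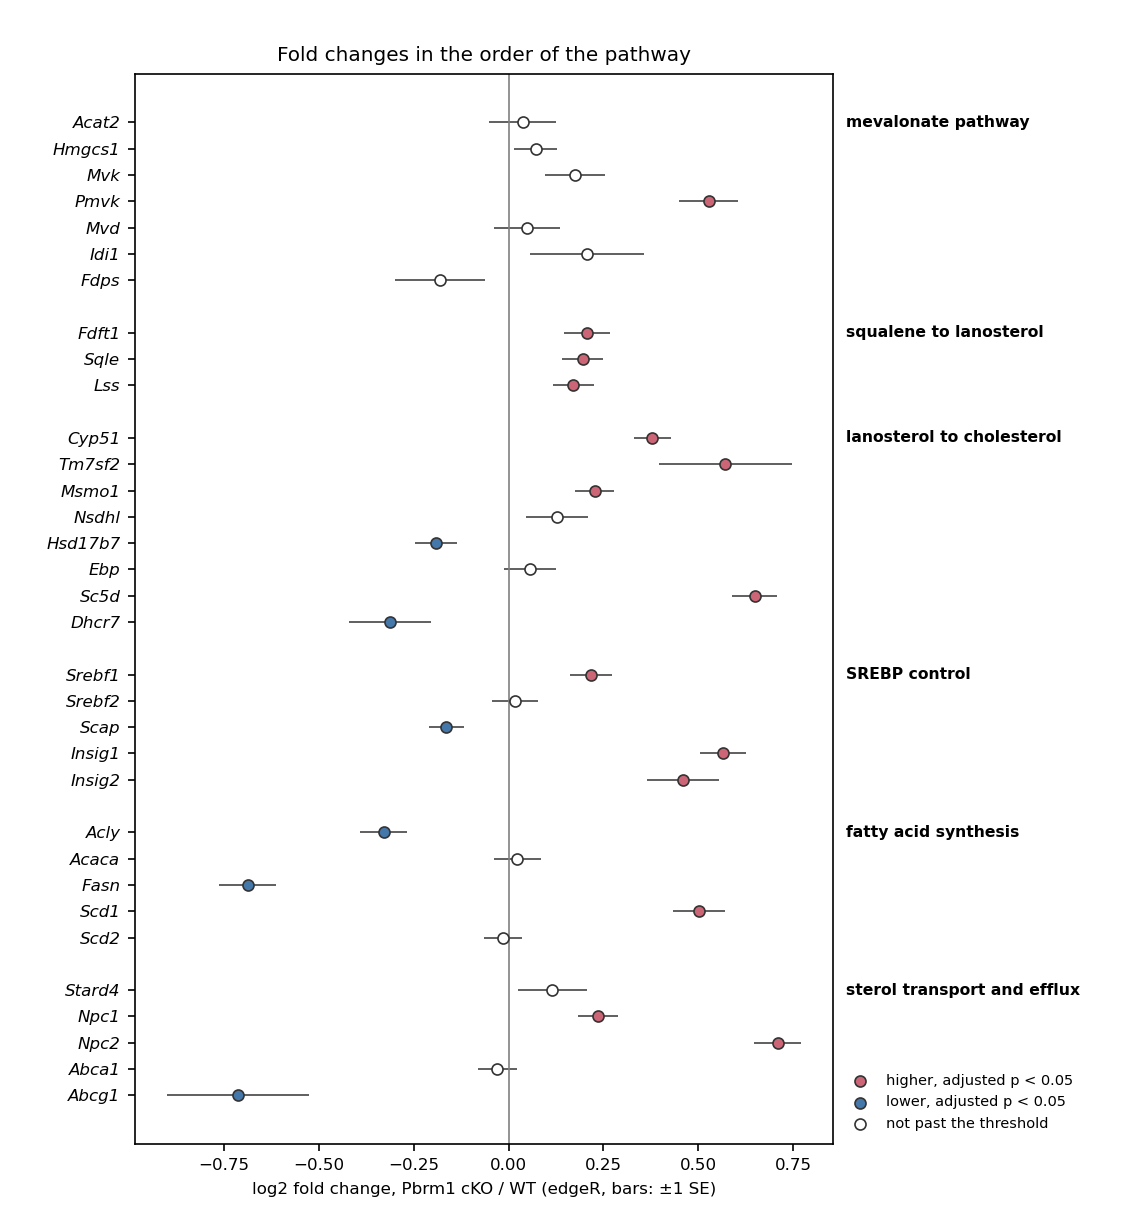
Log2 fold change of each of the 33 genes in cKO against WT (x axis, edgeR, bars of 1 SE, n = 3 libraries per group), in the order of the pathway and grouped by role (y axis). Filled points passed an adjusted p of 0.05, red for higher and blue for lower in cKO. The 3 enzymes from squalene to lanosterol all lie to the right of 0, while Fasn (-0.69) and Acly (-0.33) lie to the left.

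Of the 18 enzymes of sterol synthesis, 8 were higher, 2 were lower and 8 were not called, with a median log2 fold change of 0.17. The share called was 55.6%, beside 43.7% of all genes tested. Their summed level was 648, 649 and 671 CPM in WT libraries 1 to 3 and 760, 720 and 769 CPM in cKO libraries 1 to 3. All cKO sums lay above all WT sums, at 110% to 117% of the WT mean. The early and late steps of the route are given apart.

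The mevalonate arm, from acetyl-CoA to farnesyl diphosphate, held 7 genes, of which only Pmvk was called (14.3%, beside 43.7% of all genes tested). Pmvk encodes phosphomevalonate kinase, the second of the mevalonate kinases (ENSMUSG00000027952.16, chromosome 3, 89454541 to 89469013, plus strand, GRCm38). It stood at 16.4, 16.04 and 17.2 CPM in WT and at 24.2, 22.1 and 25.3 CPM in cKO, with no overlap. Its mean was 144% of WT, a log2 fold change of 0.53 (SE 0.079, adjusted p = 0.000118 by edgeR).

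Its neighbours in the arm were not called. Hmgcs1, which makes HMG-CoA and is a classic SREBP target, was at 107, 103 and 113 CPM in WT and 119, 105 and 116 CPM in cKO (log2 fold change 0.07, SE 0.057, adjusted p = 0.337 by edgeR). cKO library 2 lay among the WT libraries, and without it Hmgcs1 was called, with an edgeR adjusted p of 0.0360. The same held for Mvk, mevalonate kinase, at a mean of 24.5 ± 1.55 CPM in WT and 27.7 ± 2.26 CPM in cKO (n = 3, SD), whose edgeR adjusted p was 0.0887 with all libraries and 0.0128 without cKO library 2. Log2 fold changes were 0.04 for Acat2, which condenses acetyl-CoA, 0.05 for the decarboxylase Mvd, 0.21 for the isomerase Idi1 and -0.18 for the farnesyl diphosphate synthase Fdps. Idi1 and Fdps were low, at means of 4.83 and 10.2 CPM in WT, and their SEs of 0.15 and 0.12 were wide beside those of the abundant members.

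Acat2, Idi1 and Fdps also have near-identical stretches in other annotated genes, and the counting left out reads that fit several places or genes. Idi1 shares 684 bases at 100% identity with Gm13502, a processed pseudogene that itself took 8 to 26 counts per library. Fdps matches 5 other genes at 95% identity or more, of which Gm3571 took 50 to 59 counts. Another, Gm43738, lies on chromosome 3 as Fdps does, is identical over 929 bases and had 0 counts in every library. Acat2 matches Acat3 at 97.7%. The levels of these 3 genes are therefore uncertain, as is that of Fdft1, whose copy Gm6781 took 0 to 5 counts.

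All 3 enzymes that turn farnesyl diphosphate into lanosterol rose, where 21.9% of all genes tested were called higher. Fdft1, squalene synthase, commits the route to sterols, and it went from 35.0, 35.7 and 36.0 CPM in WT to 41.1, 39.2 and 43.1 CPM in cKO. Its log2 fold change was 0.21 (SE 0.060, adjusted p = 0.0125 by edgeR). Sqle, squalene epoxidase, a rate-limiting step, went from 56.3, 59.0 and 60.6 CPM to 69.2, 64.4 and 67.9 CPM. That was a log2 fold change of 0.20 (SE 0.053, adjusted p = 0.00913 by edgeR). Lss, which closes the rings to form lanosterol, stood at 47.2, 45.4 and 47.8 CPM in WT and 52.9, 51.0 and 54.2 CPM in cKO (log2 fold change 0.17, SE 0.054, adjusted p = 0.0205 by edgeR).

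For each of the 3 genes every cKO library lay above every WT library, and the cKO means were 113% to 116% of WT. Lss was not called in 6 of the 14 alternative analyses, among them DESeq2 (adjusted p = 0.0684) and the fits without WT library 1 or 2 or cKO library 1 or 3 (edgeR adjusted p from 0.0501 to 0.0927). Fdft1 was not called without cKO library 3 (adjusted p = 0.0512 by edgeR).

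The 8 enzymes from lanosterol to cholesterol moved in both directions, with 4 higher, 2 lower and 2 not called. The share called was 75%, beside 43.7% of all genes tested. Sc5d, a sterol desaturase near the end of the route (ENSMUSG00000032018.14, chromosome 9, 42251595 to 42264256, minus strand), changed most clearly. It was at 32.9, 33.5 and 33.8 CPM in WT and 52.0, 49.8 and 55.5 CPM in cKO. The cKO mean was 157% of the WT mean, with a log2 fold change of 0.65 (SE 0.060, adjusted p = 1.63e-06 by edgeR). WT libraries differed by less than 1 CPM, and the cKO libraries were more spread. The SD was 0.47 CPM in WT and 2.85 CPM in cKO (n = 3). The gap between the groups was wider than the range within either group.

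Cyp51, the lanosterol demethylase that begins this stage, was at 99.4, 95.8 and 101 CPM in WT and at 124, 126 and 135 CPM in cKO. Its log2 fold change came to 0.38 (SE 0.049, adjusted p = 3.6e-05 by edgeR). Msmo1, an oxidase that begins the removal of methyl groups from the rings, rose less, from 72.3, 75.8 and 78.9 CPM to 89.97, 85.1 and 90.8 CPM (log2 fold change 0.23, SE 0.051, adjusted p = 0.00273 by edgeR). In both genes the groups did not overlap, and both kept the call in each alternative analysis.

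Tm7sf2, a sterol reductase, was the least abundant member per length of transcript. It was at 2.66, 2.09 and 2.69 CPM in WT and 3.43, 4.14 and 3.41 CPM in cKO (log2 fold change 0.57, SE 0.18, adjusted p = 0.0176 by edgeR). It shares 532 bases with the gene Vps51 on the same strand, and it lost the call with DESeq2 (adjusted p = 0.0687) and without WT library 2 or cKO library 2 (edgeR adjusted p of 0.0902 and 0.0605). The related reductase Lbr, which carries out the same step and is also a protein of the nuclear envelope, was far more abundant at 101 ± 4.09 CPM in WT and was lower at 92.7 ± 1.39 CPM in cKO (n = 3, SD; log2 fold change -0.13, adjusted p = 0.0428 by edgeR). Lbr was not called by DESeq2 (adjusted p = 0.0963) or in 7 of the other 13 alternatives, among them the fits without WT library 1 or 3 or any 1 cKO library (edgeR adjusted p from 0.0642 to 0.140).

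The 2 enzymes of this stage that fell were Hsd17b7 and Dhcr7. Hsd17b7, the ketoreductase that works with Msmo1 and Nsdhl in removing methyl groups, stood at 46.5, 46.9 and 45.8 CPM in WT and 42.1, 39.5 and 40.4 CPM in cKO (log2 fold change -0.19, SE 0.055, adjusted p = 0.0127 by edgeR). Dhcr7 makes cholesterol from the product of the Sc5d step. It was at 11.7, 14.8 and 13.3 CPM in WT and at 11.5, 10.6 and 9.97 CPM in cKO (log2 fold change -0.31, SE 0.11, adjusted p = 0.0295 by edgeR).

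The groups did not overlap for either gene, but WT library 1 and cKO library 1 nearly met for Dhcr7, and its call was lost with DESeq2 (adjusted p = 0.0636) and without WT library 2, WT library 3 or cKO library 3 (edgeR adjusted p of 0.152, 0.0704 and 0.0909). Consecutive enzymes thus stood on opposite sides, Sc5d at 157% and Dhcr7 at 80.5% of WT. The dehydrogenase Nsdhl (log2 fold change 0.13, adjusted p = 0.233 by edgeR) and the isomerase Ebp (0.06, adjusted p = 0.551 by edgeR) were not called.

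**Figure D2:**
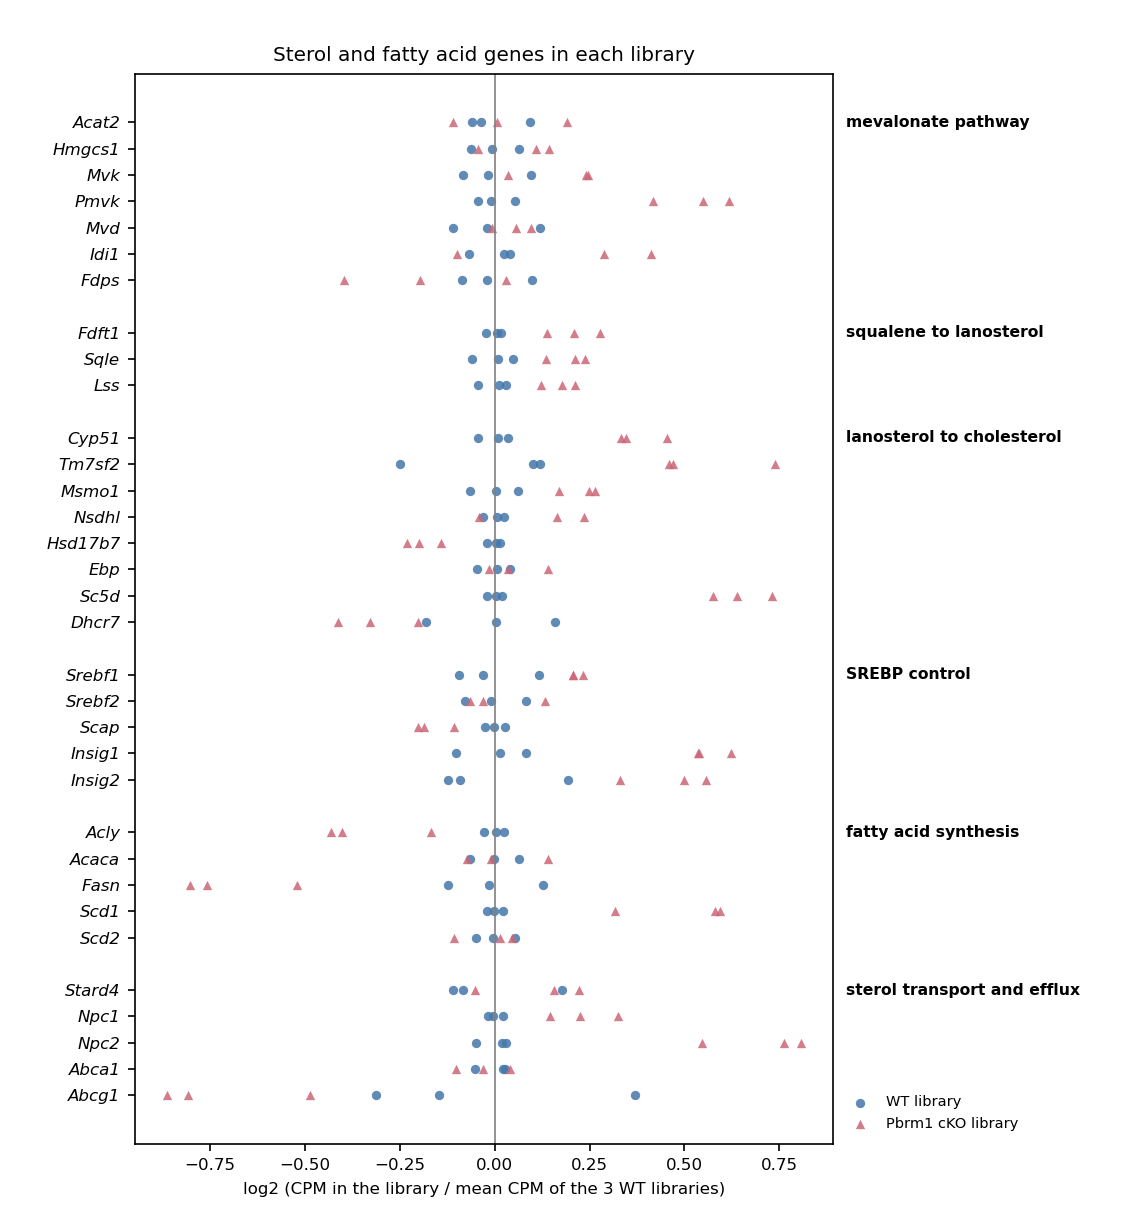
Level of each gene in each library as log2 of its CPM over the mean CPM of the 3 WT libraries (x axis), with genes grouped by role (y axis). Circles are WT and triangles are cKO libraries. For Sc5d, Insig1, Npc2 and Pmvk the triangles lie to the right of all circles, and for Fasn, Acly and Hsd17b7 to the left.

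Among the genes that control the pathway, both INSIG genes rose. Insig1 (ENSMUSG00000045294.11, chromosome 5, 28071363 to 28078662, plus strand), the SREBP-responsive form, was at 41.9, 36.9 and 40.0 CPM in WT and 57.5, 57.4 and 60.9 CPM in cKO. The cKO mean was 148% of WT (log2 fold change 0.57, SE 0.061, adjusted p = 6.85e-06 by edgeR). Insig2, which also holds SCAP in the endoplasmic reticulum, was at 16.9, 21.0 and 17.3 CPM in WT and 27.0, 23.1 and 26.0 CPM in cKO (log2 fold change 0.46, SE 0.094, adjusted p = 0.00139 by edgeR). For both genes all cKO libraries were above all WT libraries, and both calls held in every alternative.

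The SREBP genes and their carrier changed less. Srebf1, whose products favour fatty acid synthesis, was at 91.1, 82.2 and 78.7 CPM in WT and 97.0, 98.8 and 97.0 CPM in cKO (log2 fold change 0.22, SE 0.056, adjusted p = 0.00634 by edgeR). Scap was at 132, 127 and 129 CPM in WT and 114, 120 and 112 CPM in cKO, and fell by 0.16 on the log2 scale (SE 0.046, adjusted p = 0.0100 by edgeR). Srebf2, whose product favours sterol synthesis, averaged 91.8 ± 5.13 CPM in WT against 92.8 ± 6.94 in cKO (n = 3, SD; log2 fold change 0.02, SE 0.061, adjusted p = 0.856 by edgeR). Srebf1 counts cover all exons, so its isoforms were not separated here, and RNA levels do not measure how much SREBP was cut and active.

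Fatty acid synthesis showed the largest fall by absolute level. Fasn, the synthase that builds palmitate (ENSMUSG00000025153.9, chromosome 11, 120805846 to 120824547, minus strand), was at 647, 586 and 544 CPM in WT and at 350, 413 and 340 CPM in cKO. With means of 592 ± 51.9 in WT and 368 ± 39.7 in cKO, Fasn was left at 62.1% of its WT level (n = 3, SD; log2 fold change -0.69, SE 0.074, adjusted p = 6.91e-06 by edgeR). The lowest WT library was well above the highest cKO library.

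Acly, which makes cytosolic acetyl-CoA from citrate, was at 439, 449 and 456 CPM in WT and 332, 398 and 339 CPM in cKO, with a log2 fold change of -0.33 (SE 0.061, adjusted p = 0.000672 by edgeR). In both genes cKO library 2 lay nearest to WT. Together Fasn and Acly summed to 679 to 812 CPM in the cKO libraries, or 65.2% to 78.0% of the WT mean. Their fall outweighed the gains of the sterol enzymes, and the summed level of all 33 genes ran from 2900 to 2975 CPM in WT and from 2884 to 2903 CPM in cKO.

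The other genes of fatty acid synthesis did not follow Fasn. Scd1, a desaturase that makes oleate and palmitoleate, rose from 62.3, 64.2 and 63.2 CPM in WT to 95.4, 78.8 and 94.5 CPM in cKO (log2 fold change 0.50, SE 0.068, adjusted p = 5.1e-05 by edgeR). Its neighbour Scd2, which lies 87587 bases away on chromosome 19 and encodes a desaturase of the same kind, was at 325, 335 and 348 CPM in WT and 347, 312 and 339 CPM in cKO. The Scd2 groups overlapped, with a log2 fold change of -0.01 (SE 0.050, adjusted p = 0.842 by edgeR). Per kilobase of exon, Scd2 stood at 61.6 and Scd1 at 13.1 CPM in WT, so the more abundant desaturase was the one that was not called. The transcripts share 623 bases at 95.5% identity, and reads that fit both were left out of the counts.

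Acaca encodes ACC1, the carboxylase that makes the malonyl-CoA used by FASN. It was at 75.9, 72.6 and 69.4 CPM in WT and 72.1, 80.0 and 69.0 CPM in cKO, and was not called (log2 fold change 0.02, SE 0.061, adjusted p = 0.791 by edgeR). The pseudogene Gm5182 matches Acaca at 99.2% over 6118 bases and took 250 to 428 counts per library, and the 2 rows together gave 93.1 ± 4.49 CPM in WT and 89.8 ± 6.995 CPM in cKO (n = 3, SD). The groups overlapped with and without the pseudogene.

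**Figure D3:**
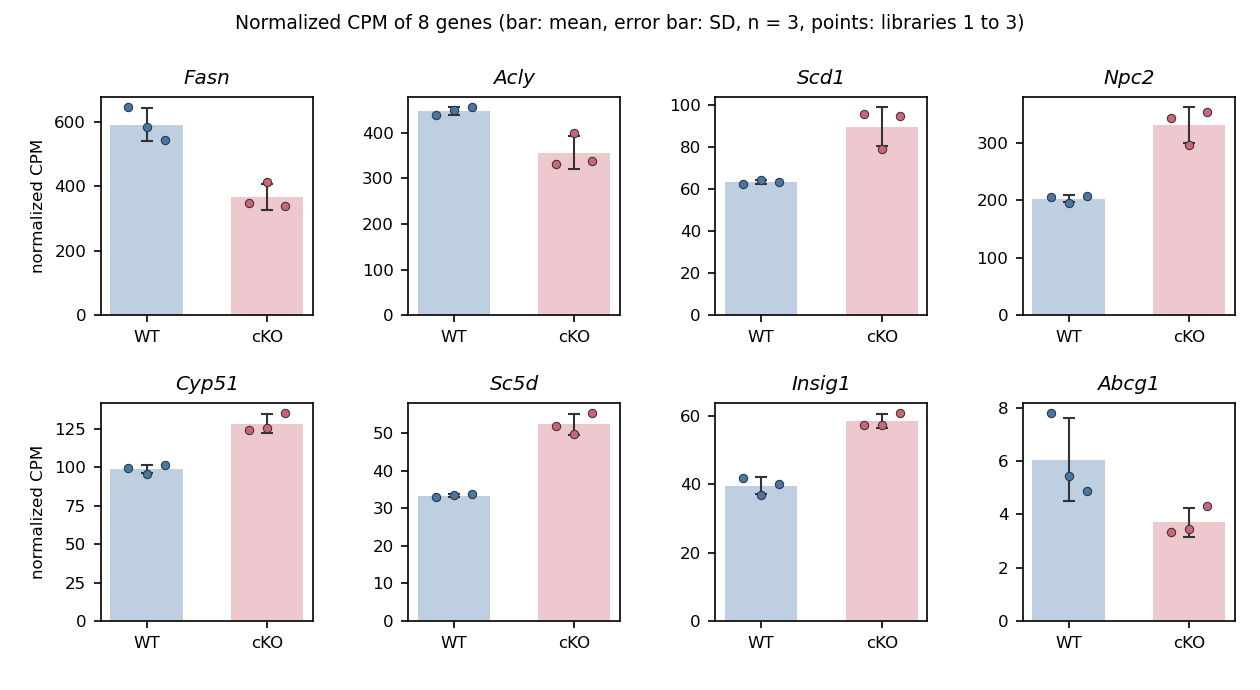
CPM of 8 members in WT and cKO (y axes start at 0, bars give the mean and error bars the SD of 3 libraries, points the libraries 1 to 3 from left to right). Fasn fell from 592 to 368 CPM and Abcg1 from 6.04 to 3.69 CPM, while Npc2 rose from 202 to 331 CPM, and cKO library 2 lay nearest to WT for Fasn, Acly, Scd1, Npc2 and Sc5d.

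In the group of transport and efflux, the lysosomal cholesterol exporters rose and 1 efflux gene fell. Npc2, a soluble lysosomal protein that hands cholesterol to NPC1 (ENSMUSG00000021242.9, chromosome 12, 84754562 to 84773152, minus strand), was at 205, 196 and 207 CPM in WT and 344, 295 and 354 CPM in cKO. Its mean was 163% of WT, with the largest upward log2 fold change of the 33 genes (0.71, SE 0.061, adjusted p = 9.17e-07 by edgeR). Npc1, its membrane partner, was at 78.5, 76.9 and 76.3 CPM in WT and 90.3, 96.7 and 85.4 CPM in cKO (log2 fold change 0.23, SE 0.053, adjusted p = 0.00282 by edgeR).

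Abcg1, which exports cholesterol to lipoproteins and is a known LXR target, was at 7.80, 5.45 and 4.86 CPM in WT and 3.32, 3.45 and 4.31 CPM in cKO (log2 fold change -0.71, SE 0.19, adjusted p = 0.00713 by edgeR). The groups did not overlap, though the WT libraries were spread widely, with WT library 1 high. Abca1, the other LXR-driven exporter, stood at 84.7, 80.2 and 84.4 CPM in WT and 85.5, 77.4 and 81.3 CPM in cKO and was not called (log2 fold change -0.03, SE 0.052, adjusted p = 0.679 by edgeR). Stard4, a cytosolic sterol carrier, averaged 25.1 ± 2.83 CPM in WT against 27.2 ± 2.63 in cKO (n = 3, SD; log2 fold change 0.12, adjusted p = 0.336 by edgeR).

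Divided by exon length, so that genes can be set beside each other, the level in WT was highest for Acly (84.8 CPM per kilobase), Scd2 (61.6), Fasn (54.1) and Npc2 (37.2). In cKO the order of these 4 was Acly (67.5 CPM per kilobase), Scd2 (61.0), Npc2 (60.9) and Fasn (33.6), so Npc2 passed Fasn. Tm7sf2 was last in both groups, at 0.44 and 0.65 CPM per kilobase. The median WT level was 52.7 CPM for the 14 genes higher in cKO, 87.9 CPM for the 6 lower and 25.1 CPM for the 13 not called, although the faint Tm7sf2 and Abcg1 were among those called.

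The libraries of a group agreed closely, with a median coefficient of variation over the 33 genes of 4.05% in WT and 6.97% in cKO. Of the 3 cKO libraries, library 2 was nearest to the WT mean in 13 of the 20 called genes, library 1 in 4 and library 3 in 3. cKO library 2 also had the highest Pbrm1 level among the cKO libraries (50.7 CPM), the lowest cKO sum of smooth muscle markers and the highest cKO sum of leukocyte markers. Without it 21 members were called, and without cKO library 1 or 3 the counts were 19 and 17.

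Marker lists of other cells moved between the groups too, in a comparison where 43.7% of all genes tested were called. Of 10 smooth muscle markers 7 were higher and 1 was lower in cKO, and the list summed to 3899 to 3990 CPM in WT and 5002 to 5676 CPM in cKO. Leukocyte and macrophage markers were higher in 11 of 12 cases and summed to 749 to 800 CPM in WT and 1093 to 1166 CPM in cKO. Macrophages are rich in lysosomes and express Npc2, Npc1 and Lipa. In the cKO libraries the transport and efflux members summed to 127% to 140% of the WT mean, and the leukocyte list to 143% to 152%. Npc2 was the largest part of the transport and efflux sum, with means of 202 CPM in WT and 331 CPM in cKO. Of the others, Npc1 was higher, Abcg1 was lower, and Abca1 and Stard4 were not called. The part of leukocytes and macrophages in the rise of Npc2 was not tested.

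Markers of dividing cells were lower in 8 of 8 cases, with sums of 897 to 948 CPM in WT and 593 to 602 CPM in cKO, and the part of cell division in the fall of Fasn and Acly was not tested. Fibroblast markers were higher in 6 and lower in 1 of the 9 tested of 10, with sums of 3555 to 4133 CPM in WT and 4845 to 5252 CPM in cKO. Epithelial markers were higher in 7 of 10, with sums of 1061 to 1160 CPM and 1278 to 1425 CPM. Endothelial markers were higher in 2 (Vwf and Flt1), lower in 1 (Kdr) and not called in 5 of 8, with sums of 345 to 362 CPM and 286 to 295 CPM. The lower sum followed Kdr, the most abundant of them, with means of 182 CPM in WT and 99.4 CPM in cKO. The part of these cells in the members' differences was not tested either.

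Adipocytes are rich in Fasn, Acly and Scd1. The defining adipocyte genes Adipoq, Plin1, Cidec and Lep had 0 to 4 counts in each library, and the 4 of 10 adipocyte markers abundant enough to test were not called. The whole list summed to 12.6 to 16.6 CPM in WT and 15.5 to 18.9 CPM in cKO. The part of adipocytes in the members' differences was not tested.

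Steroid-producing cells draw on cholesterol, and 4 of 9 of their markers could be tested. All 4 fell, and the list summed to 1963 to 2173 CPM in WT and 844 to 1220 CPM in cKO. Most of this sum was Inhba, with means of 1781 CPM in WT and 892 CPM in cKO, so the sum mainly followed that gene. Cyp11a1, the enzyme that cuts the cholesterol side chain to begin steroid synthesis, was at 151, 152 and 154 CPM in WT and 56.0, 31.5 and 54.0 CPM in cKO (log2 fold change -1.70, adjusted p = 5.99e-07 by edgeR). Star, which brings cholesterol into mitochondria, went from 81.2, 82.8 and 83.4 CPM to 56.5, 64.6 and 59.3 CPM (log2 fold change -0.45, adjusted p = 2.24e-05 by edgeR), and Hsd3b1 (-0.83) and Inhba (-0.997) were lower as well. Cyp17a1 had 0 counts in every library, Cyp19a1 at most 1 and Hsd3b6 at most 2, and Lhcgr and Fshr were too low to test. The part of these cells in the members' differences was not tested.

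**Figure D4:**
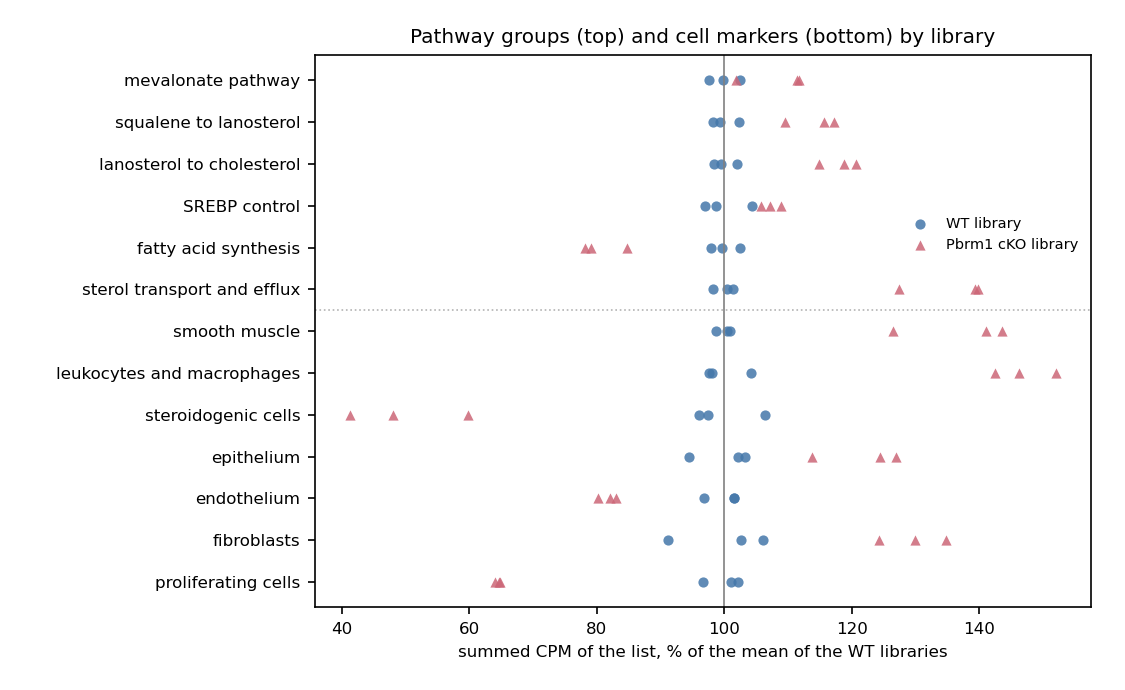
Summed CPM of each group of members (above the dotted line) and of each marker list (below it) in every library, as a percent of the mean of the WT libraries (x axis). Circles are WT and triangles are cKO libraries. Fatty acid synthesis fell to 78.1% to 84.8%, sterol transport and efflux rose to 127% to 140%, and markers of dividing cells stood at 63.9% to 64.9%.

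A wider set of 63 related lipid genes was followed next, of which 61 were tested and 27 (44.3%) were called, a share close to the 43.7% of all genes. Of these, 19 were higher and 8 were lower in cKO. Among the 5 lists the share called was highest for the list of LXR and oxysterol genes, with 7 of 12 higher and none lower (58.3% called, median log2 fold change 0.24).

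Cyp7b1, which hydroxylates and so clears oxysterols, was at 13.7, 14.0 and 12.8 CPM in WT and at 69.3, 47.7 and 73.0 CPM in cKO. Its log2 fold change of 2.22 (SE 0.14, adjusted p = 4.17e-08 by edgeR) was the largest in the related lists. Cyp27a1, which makes an oxysterol in mitochondria, was at 1.42, 1.87 and 1.29 CPM in WT and 3.04, 2.92 and 2.96 CPM in cKO (log2 fold change 0.95, SE 0.20, adjusted p = 0.00171 by edgeR). Ch25h, which makes the oxysterol that binds INSIG, was at 11.6, 12.4 and 10.7 CPM in WT and 18.6, 15.7 and 20.5 CPM in cKO (log2 fold change 0.65, SE 0.11, adjusted p = 0.000250 by edgeR). In these genes, and in the transporter Abca7 (0.37, adjusted p = 0.00191 by edgeR), the groups did not overlap. Some LXR targets among the members went different ways, with Srebf1 and Scd1 higher, Abcg1 lower and Abca1 not called, and no full list of such targets was made. Nr1h2, which encodes LXR beta, was the more abundant LXR gene at 37.4 ± 2.63 CPM in WT and was higher at 44.4 ± 2.93 in cKO (n = 3, SD; log2 fold change 0.24, adjusted p = 0.0116 by edgeR), a call lost without WT library 2 or 3 (edgeR adjusted p of 0.0515 and 0.0590). Its partner Rxra was higher too (0.24, adjusted p = 0.00156 by edgeR). Nr1h3, which encodes LXR alpha, was at 4.23 CPM in WT and was not called (0.12, adjusted p = 0.571 by edgeR).

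In the list of SREBP processing and protein breakdown in the endoplasmic reticulum, 4 of 8 genes were higher and none was lower. The share called was 50%, beside 43.7% of all genes. Trib3 is on the list but itself carries out neither task. Log2 fold changes were 0.31 for Trib3, 0.22 for the ubiquitin ligase Rnf139, 0.20 for Erlin2 and 0.15 for Mbtps1, the site-1 protease that makes the first cut in SREBPs. Mbtps1 went from 136 ± 1.17 to 150 ± 5.36 CPM (n = 3, SD; adjusted p = 0.0170 by edgeR) and lost the call without WT library 1, WT library 3 or cKO library 1 (edgeR adjusted p of 0.0539, 0.0590 and 0.0798). The site-2 protease gene Mbtps2, which makes the second cut, was not called (-0.04, adjusted p = 0.652 by edgeR).

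In the list of fatty acid supply, elongation, desaturation and activation, 4 of 20 tested genes were higher and 2 were lower, a smaller share (30%) than the 43.7% of all genes. Me1, the malic enzyme that gives NADPH to FASN, was at 69.8, 74.5 and 82.4 CPM in WT and 53.8, 40.5 and 45.7 CPM in cKO. Its log2 fold change of -0.70 (SE 0.089, adjusted p = 3.03e-05 by edgeR) was close in size to that of Fasn. Acsl1, which activates long fatty acids, was at 16.4, 15.4 and 15.3 CPM in WT and 11.7, 12.6 and 11.7 CPM in cKO (log2 fold change -0.39, SE 0.085, adjusted p = 0.00238 by edgeR).

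Fads3, of the desaturase family, was higher by 0.38 and Hsd17b12, an elongation enzyme, by 0.20 on the log2 scale. Slc25a1, the carrier that supplies ACLY with citrate, was not called (0.02, adjusted p = 0.811 by edgeR), nor was the elongase Elovl6 (0.06, adjusted p = 0.356 by edgeR), which works on the product of FASN. Thrsp, a cofactor of lipogenesis, was too low to test.

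Genes of cholesterol esters, lysosomes and uptake went both ways, with 3 higher and 3 lower of 13 tested (46.2% called, close to the 43.7% of all genes). Among the 3 higher, Gramd1a (log2 fold change 0.19, adjusted p = 0.0475 by edgeR) lost its call in 9 of 14 alternatives, 5 of them fits without 1 library (WT 2 or 3, or any cKO library; edgeR adjusted p from 0.0577 to 0.199), and DESeq2 gave 0.111. Vldlr, a lipoprotein receptor, rose from 82.1, 81.4 and 85.0 CPM in WT to 128, 128 and 127 CPM in cKO (log2 fold change 0.62, SE 0.044, adjusted p = 1.69e-07 by edgeR). Lipa, the lysosomal acid lipase that frees cholesterol upstream of NPC2, rose from 99.5, 98.9 and 107 CPM to 146, 148 and 144 CPM (log2 fold change 0.52, SE 0.047, adjusted p = 1.23e-06 by edgeR). Between the groups, Lipa, Npc2, Npc1 and the leukocyte markers rose together. Among the cKO libraries, library 2 had the highest leukocyte sum (152% of the WT mean). It also had the lowest Npc2 level (295 CPM) and the lowest transport and efflux sum (127%), of which Npc2 was the largest part. Npc1 and Lipa, by contrast, were highest in cKO library 2, at 96.7 and 148 CPM. The largest part of the leukocyte sum was Lyz2, at 595, 663 and 605 CPM in cKO libraries 1 to 3. Other leukocyte markers stood either way, with Cd68 and Mrc1 lowest and Csf1r and Laptm5 highest in library 2. The part of leukocytes in these rises was not tested.

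Cav1, the main coat protein of caveolae in smooth muscle, was at 230, 231 and 246 CPM in WT and 165, 161 and 175 CPM in cKO (log2 fold change -0.50, SE 0.048, adjusted p = 2.26e-06 by edgeR). Scarb1, the receptor for high density lipoprotein, was at 77.1, 75.9 and 71.2 CPM in WT and 60.1, 52.3 and 57.7 CPM in cKO (log2 fold change -0.40, SE 0.060, adjusted p = 0.000129 by edgeR). Both fell with no overlap between the groups. The summed smooth muscle markers were higher, though Smtn was lower and Cnn1 and Actg2 were not called. The part of muscle or other cells in the fall of Cav1 was not tested. Soat1, which stores cholesterol as esters, was not called (0.04, adjusted p = 0.515 by edgeR).

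The branches of the sterol pathway and its electron donors changed by small amounts. Of 8 genes, 1 was higher and 3, with Lbr, were lower (50% called, beside 43.7% of all genes tested). Log2 fold changes were -0.26 for Nus1, of the dolichol branch, -0.14 for Cyb5b, an electron carrier, and 0.16 for Cyb5r3, which passes electrons on through cytochrome b5. Cyb5b lost its call without WT library 3 or cKO library 3 (edgeR adjusted p of 0.0950 and 0.0598). Por, the reductase that serves Cyp51 and Sqle, was at 164 CPM in WT and was not called (log2 fold change -0.0021, adjusted p = 0.977 by edgeR).

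**Figure D5:**
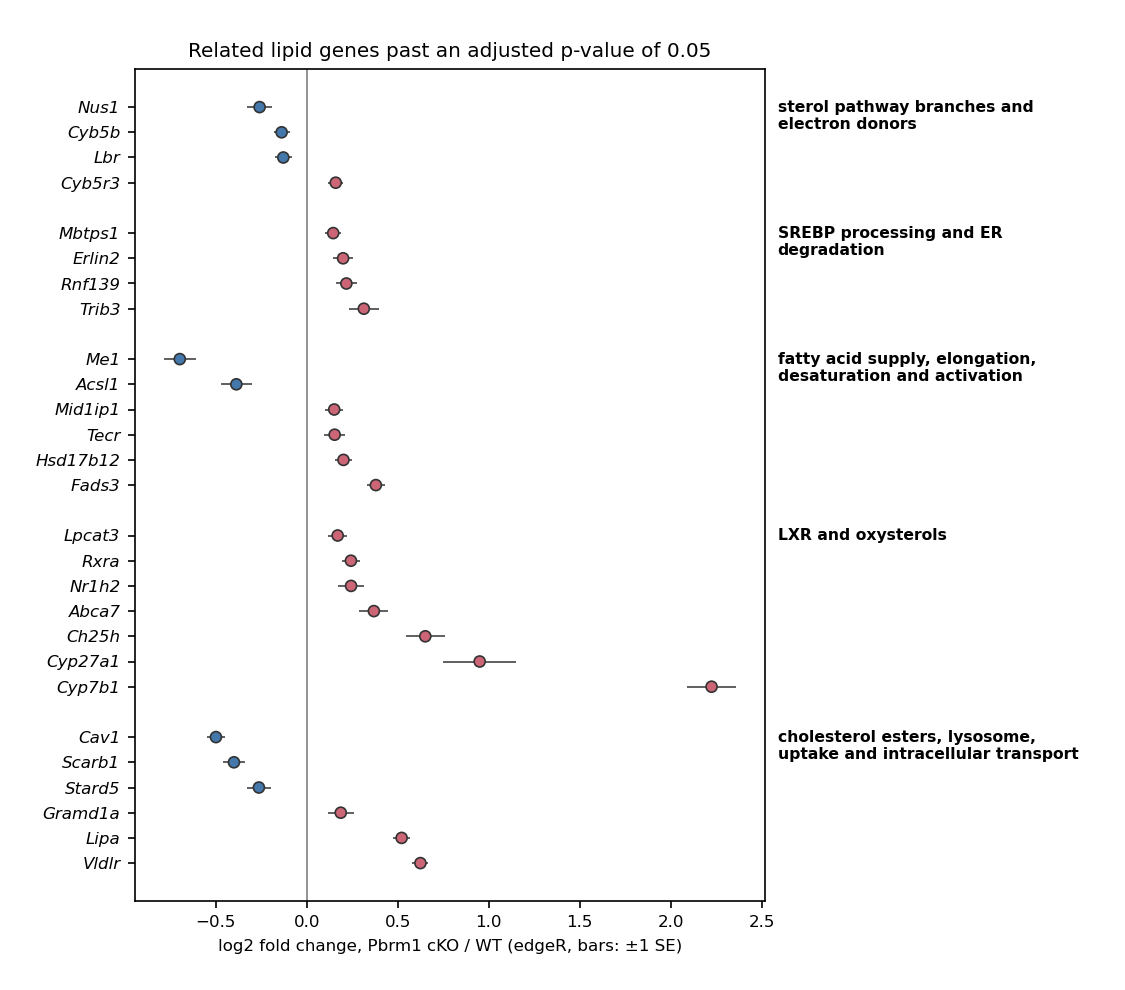
Log2 fold change in cKO against WT (x axis, edgeR, bars of 1 SE, n = 3 libraries per group) of the 27 related lipid genes that passed an adjusted p of 0.05, by list (y axis). Red points are higher and blue points lower in cKO. Cyp7b1 lies far to the right at 2.22, and Me1 lies farthest to the left at -0.70.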

How the data were processed

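RNA-seq was performed on 6 libraries from total RNA (3 per group), made with a kit that keeps the strand. The authors deposited whole-number read counts per gene from featureCounts 1.6.4 on GRCm38.p5, counted over exons by strand with reads that fit several places or genes left out; processing notes also name cutadapt and HISAT2. Symbols came from an annotation of the same build and matched 99.7% of 54232 genes. All 6 count columns were used.

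Counts were fitted in R 4.3.3 by the quasi-likelihood F-test of edgeR 4.0.16 (TMM, filterByExpr, two-sided, Benjamini-Hochberg over 15376 genes, threshold 0.05), and SE is the absolute log2 fold change over the square root of F. The script was tested on simulated data. Libraries of a group differed by more than sampling noise (chi-square per gene 1.31 to 1.60). Alternatives were DESeq2 1.42.0, limma-voom (limma 3.58.1), 3 other scalings, 2 filters, a replicate block and leaving out each library.

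All members were named, and of each related list up to 4 called genes with the largest change. Other genes are named for their role and were chosen after their values were seen. Members and lists were chosen with earlier results of these data known. Copies were sought with BLAST 2.17.0 (95% identity over at least 200 bases). Replicate numbers were checked as pairs: residuals of libraries with the same number correlated at -0.0243, 0.0353 and 0.0928, so the numbers were not taken as pairs. No list was tested as a set.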

Additional observations from a re-analysis of the deposited data

How the results depend on the processing

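With 3 libraries per group and a biological coefficient of variation of 5.32%, small changes of abundant genes could be called, while Tm7sf2, Idi1 and Abcg1 rested on few counts. Of the 20 called members, 16 kept the call in all 14 alternatives, and no called member changed direction. Lss lost it in 6 (adjusted p from 0.0501 to 0.0927), Dhcr7 in 4 (0.0636 to 0.152), Tm7sf2 in 3 (0.0605 to 0.0902) and Fdft1 in 1. DESeq2 called 17 members, and the 3 scalings and limma-voom called 20. Leaving out 1 library at a time gave 17 to 21 member calls, 20 to 30 calls among related genes and a median member log2 fold change of 0.096 to 0.15. The fit with a replicate block, although the numbers did not pair the libraries, called 20 members, 28 related genes and 6908 genes in all, against 20, 27 and 6723 without it. Over all genes tested, the median stayed within -0.010 and 0.017 over the alternatives.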
